A study of Mus musculus with 6 samples.

Results

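The genes described here are 10 genes of the neutrophil granulocyte, S100a8, S100a9, Camp, Ngp, Ltf, Lcn2, Retnlg, Ly6g, Mpo and Elane, as they were read in bulk RNA-seq of macrophages sorted from mouse melanoma. They were found by their gene name and are 10 of the 23424 genes in the deposited tables, each with 1 row in each of the 6 libraries. The set was chosen by its lower level in F4/80high than in F4/80low libraries, which was known before this account was written. The difference between the subsets is therefore given below as a description. Counts of calls in that contrast are printed only beside the share over all genes, and nothing is drawn from them.

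Tumors of the mouse melanoma line YUMM1.7 were grown in the skin of wild-type (WT) female C57Bl/6J mice that were 8 weeks old when the tumors were started and that received no treatment. Tumors were taken on day 21 and tumor-associated macrophages (TAMs) were sorted into F4/80high and F4/80low cells, F4/80 being the macrophage surface protein encoded by Adgre1. Each library was made from cells of 10 pooled tumors in 1 of 3 independent experiments, and F4/80high and F4/80low libraries with the same replicate number were taken to come from the same experiment. There are 3 libraries of each subset. Both subsets share the strain, the tumor line, the day and the gate on live CD45+ CD11b+ cells. The study's methods add that lineage-positive cells were gated out. Antibodies listed for flow cytometry of these tumors include B220, CD3e, NK1.1 and Ly6G labelled with FITC, and a gate against Ly6G would remove neutrophils, but which antibodies made up the lineage gate of the sort is not given in the sources used here. A bulk library of sorted cells cannot tell fewer cells of a type from less RNA per cell.

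Granules of the neutrophil are filled in steps while the cell matures in the bone marrow. Primary granules, which hold myeloperoxidase (Mpo) and neutrophil elastase (Elane), are made first. Secondary and gelatinase granules follow, with lactoferrin (Ltf), lipocalin 2 (Lcn2), cathelicidin (Camp) and neutrophilic granule protein (Ngp). The S100 proteins S100a8 and S100a9 form the calcium-binding complex calprotectin, which fills the cytosol of mature neutrophils and is also made by monocytes. Ly6g encodes the surface protein by which mouse neutrophils are recognised, and Retnlg encodes a secreted protein of the resistin family.

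The total counts per library lay between 16045281 and 43604373. The smallest totals were those of replicate 3 of both subsets, where Lars2, Gm23935 and Gm15564, 3 abundant features, together held 16.1% and 17.1% of the counts against 0.378% to 0.609% in the other libraries. The study draws replicates 1 and 2 as batch 1 and replicate 3 as batch 2. Values are CPM, a gene's count scaled to a common library size after normalization by trimmed mean of M values (TMM). The sort marker Adgre1 had 273, 539 and 360 CPM in F4/80high and 243, 327 and 183 CPM in F4/80low replicates 1, 2 and 3. It was higher in F4/80high in every replicate pair, although the ranges of the subsets overlap.

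The members together took a small share of each library. They made up 0.238%, 0.0953% and 0.0303% of all counts of the F4/80high libraries of replicates 1, 2 and 3. For the F4/80low libraries these shares were 0.469%, 0.370% and 0.0586%. Within each replicate number the F4/80low library held the larger share, and F4/80high replicate 1 held a larger share than F4/80low replicate 3.

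The level of the genes, per kilobase of gene length, spanned a wide range and followed the granule class only in part. In F4/80low the mean CPM per kilobase was 1525 for Retnlg, 1115 for S100a9, 558 for S100a8 and 296 for Ngp. It was 60.1 for Lcn2, 52.9 for Ltf, 47.9 for Camp and 5.08 for Ly6g. The primary granule genes were lowest, with 1.36 for Elane and 0.184 for Mpo. The spread over the 3 libraries of a subset was wide, for instance 927 ± 453 CPM (SD, n = 3) for Retnlg and 582 ± 463 CPM for S100a9 in F4/80low, and neighbours in this order overlapped over the 3 F4/80low libraries, except that Camp, at 14.6 to 68.6 CPM per kilobase, stayed above Ly6g at 1.57 to 9.43.

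The calprotectin genes S100a8 and S100a9 lie close to each other on chromosome 3. In GRCm38, with coordinates of GENCODE M21, S100a8 lies at chr3:90668978-90670035 on the plus strand and S100a9 at chr3:90692632-90695721 on the minus strand, each with 3 merged exons. No other tested gene lies in the 26.7 kb that they span. Their promoters are shown because these genes had the most constant ratio of all pairs, given below. The sequences are from RefSeq (GRCm38.p6), run 5′ to 3′ on the strand of the gene from 250 bases before to 50 bases after its RefSeq start, and lie at chr3:90668821-90669120 and chr3:90695672-90695971. Capitals mark matches, on either strand, to the C/EBP motif TTNNGNAA and the PU.1 motif AGGAAGT, and, on the strand of the gene, to the TATA box TATAAA.
S100a8: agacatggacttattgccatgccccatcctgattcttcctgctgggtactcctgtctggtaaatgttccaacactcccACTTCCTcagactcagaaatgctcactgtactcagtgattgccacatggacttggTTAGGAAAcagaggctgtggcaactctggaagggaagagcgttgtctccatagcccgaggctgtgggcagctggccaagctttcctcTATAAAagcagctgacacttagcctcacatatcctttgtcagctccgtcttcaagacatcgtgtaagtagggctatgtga
S100a9: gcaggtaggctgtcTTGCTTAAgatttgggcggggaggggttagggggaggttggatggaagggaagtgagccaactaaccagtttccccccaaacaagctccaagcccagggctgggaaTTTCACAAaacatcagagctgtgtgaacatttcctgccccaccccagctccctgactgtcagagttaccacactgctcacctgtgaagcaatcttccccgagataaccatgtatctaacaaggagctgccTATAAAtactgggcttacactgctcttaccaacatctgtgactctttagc

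S100a8 had 342, 118 and 70.4 CPM in F4/80high and 723, 305 and 133 CPM in F4/80low replicates 1, 2 and 3. S100a9 had 512, 156 and 111 CPM in F4/80high and 1102, 432 and 213 CPM in F4/80low. Both genes were higher in F4/80low in each of the 3 pairs, by 1.90- to 2.58-fold for S100a8 and by 1.91- to 2.77-fold for S100a9. The ranges of the subsets overlap for both genes, since F4/80high replicate 1 was above F4/80low replicates 2 and 3. The log2 fold change of F4/80high over F4/80low, fitted with batch, was -1.08 ± 0.43 (SE) for S100a8 and -1.11 ± 0.46 for S100a9.

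Lcn2 encodes a protein that binds bacterial siderophores. Lcn2 had 104, 48.7 and 28.3 CPM in F4/80high and 267, 146 and 60.2 CPM in F4/80low replicates 1, 2 and 3. Ly6g had 4.62, 1.32 and 1.19 CPM in F4/80high and 8.89, 3.98 and 1.48 CPM in F4/80low. For S100a8, S100a9, Lcn2 and Ly6g, and also for Ngp and Ltf described below, replicate 1 was the highest library and replicate 3 the lowest in both subsets. Within the pairs Lcn2 was 2.13- to 3.00-fold and Ly6g 1.25- to 3.01-fold higher in F4/80low. In replicate 3 the Ly6g values rest on 11 and 13 counts, so its difference in that pair is within counting error. The fitted log2 fold change was -1.32 ± 0.34 for Lcn2 and -0.89 ± 0.65 for Ly6g. Ly6g belongs to a family of similar Ly6 genes, and how reads shared with another copy were counted is not given in the sources used here.

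Camp, Ngp and Ltf, whose proteins are stored in secondary granules, lie on the same stretch of chromosome 9 (chr9:109847379-109849617 on the minus strand, chr9:110419747-110423012 and chr9:111019271-111042767 on the plus strand). Camp encodes the antimicrobial peptide CRAMP, and Ngp encodes a related granule protein. Their 3 promoters are shown beside each other because the count ratios among the 3 genes spread by 1.73-fold at most. Some pairs off this stretch were as constant, such as Lcn2 over S100a8 at 1.57-fold. The promoters lie at chr9:109849407-109849706, chr9:110419558-110419857 and chr9:111019042-111019341, with capitals as above. The window of Camp holds none of the 3 motifs.
Camp: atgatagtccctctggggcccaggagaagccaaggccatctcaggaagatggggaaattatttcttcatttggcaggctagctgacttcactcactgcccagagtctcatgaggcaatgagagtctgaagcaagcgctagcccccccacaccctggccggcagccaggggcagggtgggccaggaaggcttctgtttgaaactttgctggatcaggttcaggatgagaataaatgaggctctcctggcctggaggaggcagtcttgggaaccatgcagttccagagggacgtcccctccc
Ngp: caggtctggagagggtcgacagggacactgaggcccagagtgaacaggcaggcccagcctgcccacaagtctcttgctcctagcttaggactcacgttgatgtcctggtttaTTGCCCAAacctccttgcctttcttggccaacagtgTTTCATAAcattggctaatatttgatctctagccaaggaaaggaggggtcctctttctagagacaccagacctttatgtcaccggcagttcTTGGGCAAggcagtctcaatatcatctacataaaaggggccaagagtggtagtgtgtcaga
Ltf: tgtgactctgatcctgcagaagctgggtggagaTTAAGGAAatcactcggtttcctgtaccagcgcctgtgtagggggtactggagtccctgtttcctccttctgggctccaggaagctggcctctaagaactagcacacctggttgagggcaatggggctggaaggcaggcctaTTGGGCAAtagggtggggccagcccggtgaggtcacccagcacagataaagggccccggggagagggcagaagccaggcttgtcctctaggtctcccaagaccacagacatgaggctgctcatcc

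Camp had 14.7, 15.8 and 4.43 CPM in F4/80high and 52.0, 45.8 and 11.1 CPM in F4/80low replicates 1, 2 and 3. Ngp had 173, 148 and 61.5 CPM in F4/80high and 552, 427 and 107 CPM in F4/80low. Ltf, the iron-binding lactoferrin, had 104, 101 and 29.7 CPM in F4/80high and 314, 188 and 46.0 CPM in F4/80low. In F4/80high these 3 genes stood nearer to each other in replicates 1 and 2 than S100a8 did, and replicate 3 was the low library in both subsets. All 3 were higher in F4/80low in every pair, by 2.50- to 3.54-fold for Camp, 1.74- to 3.19-fold for Ngp and 1.55- to 3.01-fold for Ltf. The subsets overlap for each of them through F4/80low replicate 3, which was below F4/80high replicates 1 and 2. The fitted log2 fold change was -1.57 ± 0.26 for Camp, -1.34 ± 0.26 for Ngp and -1.08 ± 0.27 for Ltf.

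The other genes on this stretch had fold changes centred near 0. From Camp to Ltf, over 1195 kb, 24 genes were tested, of which 21 were other genes. Of these 21, 3 were lower in F4/80high in all 3 pairs and 0 were higher in all 3, with a median log2 fold change of -0.07.

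**Figure D1:**
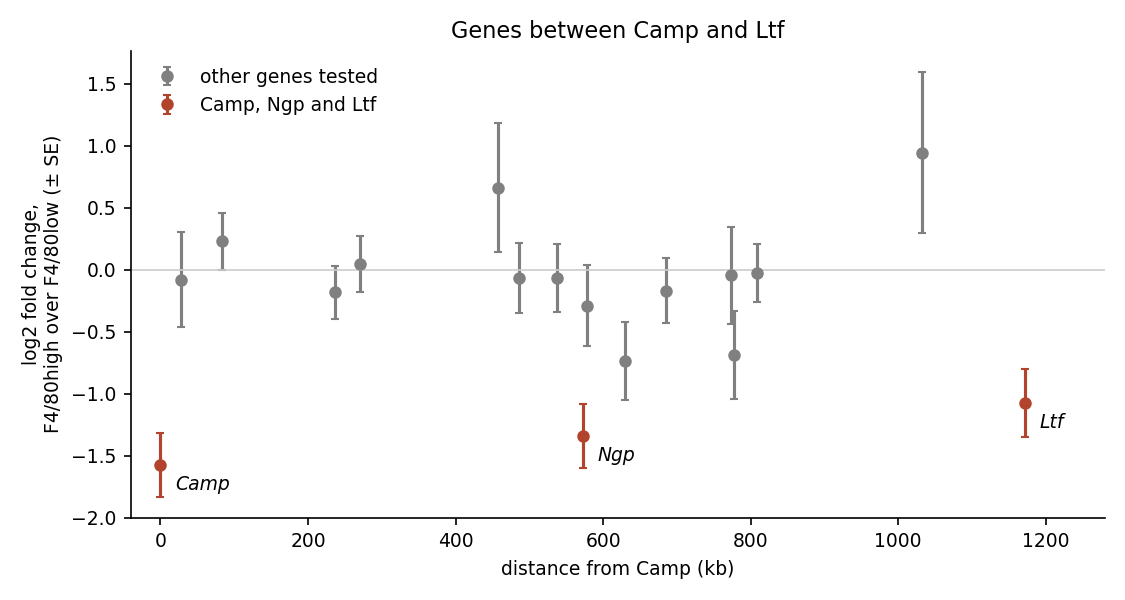
Log2 fold change of F4/80high over F4/80low (y axis, bars are SE of the edgeR fit with batch on 6 libraries) against the distance of each gene's start in kilobases from Camp (x axis). Of the 24 genes tested, the 17 with an SE under 1 are drawn. Camp, Ngp and Ltf (red) lie between -1.57 and -1.08, and the 14 other genes (grey) between -0.74 and 0.94.

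Retnlg (chr16:48872621-48874496, plus strand) had the largest number of counts of the members in 5 of the 6 libraries and a highest library of its own. Its promoter window, at chr16:48872358-48872657, is shown for comparison with the others, with capitals as above.
Retnlg: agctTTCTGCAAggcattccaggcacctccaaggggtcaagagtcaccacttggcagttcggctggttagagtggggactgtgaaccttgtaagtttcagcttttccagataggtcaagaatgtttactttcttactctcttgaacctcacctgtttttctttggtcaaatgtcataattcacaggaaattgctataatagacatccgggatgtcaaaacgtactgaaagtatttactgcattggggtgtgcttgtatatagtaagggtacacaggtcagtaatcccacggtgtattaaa

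Retnlg had 564, 217 and 219 CPM in F4/80high and 860, 1410 and 511 CPM in F4/80low replicates 1, 2 and 3. Its highest library was F4/80low replicate 2, while that of the other 9 members was F4/80low replicate 1. It was higher in F4/80low by 1.53-, 6.49- and 2.33-fold in pairs 1, 2 and 3, and F4/80high replicate 1 was above F4/80low replicate 3. The fitted log2 fold change was -1.43 ± 0.37. Retnlg has paralogs in the resistin family, so its counts share the uncertainty given for Ly6g.

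The primary granule genes Mpo (chr11:87793581-87804413) and Elane (chr10:79886247-79888215) were near the limit of detection. Mpo had 37, 0 and 0 counts in F4/80high and 46, 30 and 0 counts in F4/80low replicates 1, 2 and 3. Elane had 41, 52 and 0 counts in F4/80high and 89, 62 and 0 counts in F4/80low. Neither gene had a count in replicate 3 of either subset. A count of 0 there allows up to 3 counts, or 0.324 and 0.342 CPM in F4/80high and F4/80low replicate 3, by counting error alone. Both genes were lower in F4/80high in the 2 pairs in which a count was read, and equal at 0 in the third.

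**Figure D2:**
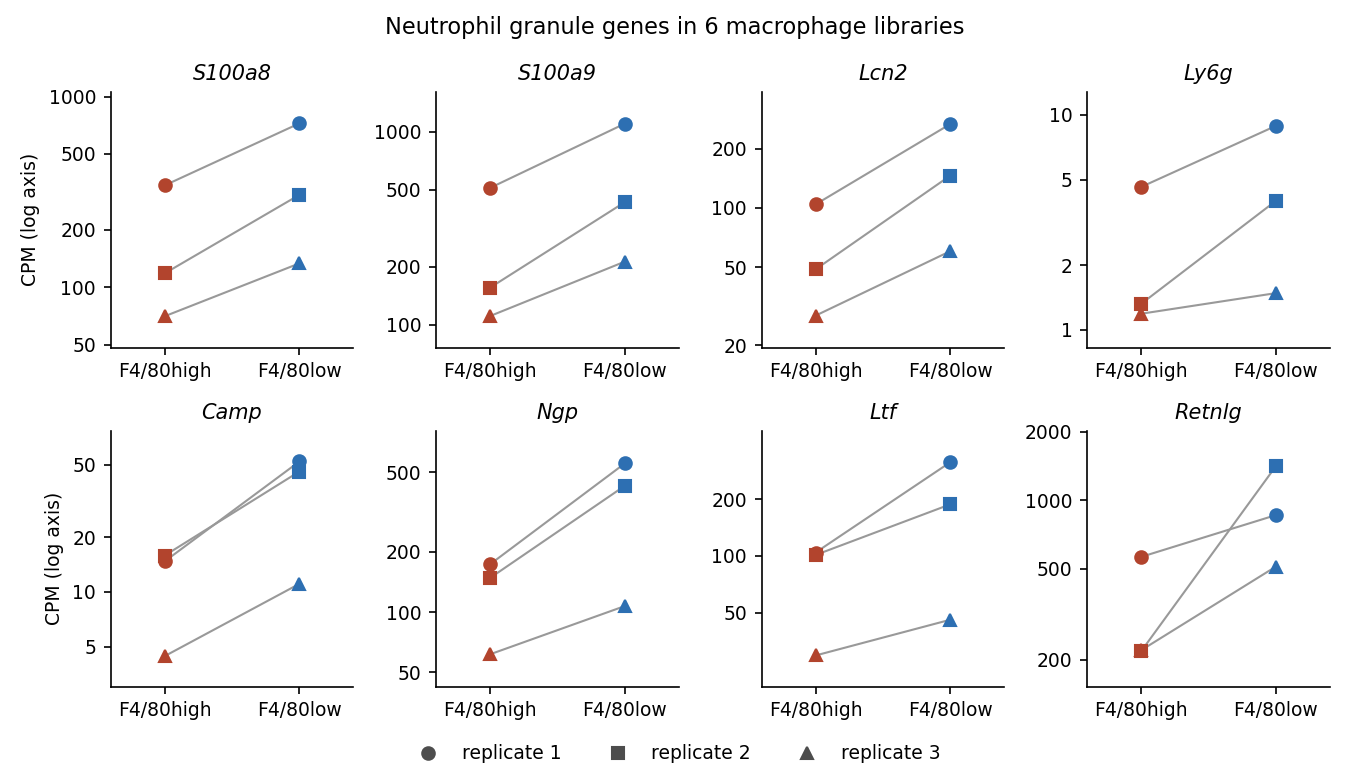
CPM on a log axis (y) of the 8 genes with more than 3 counts in every library, in F4/80high (red) and F4/80low (blue), with a line joining the libraries of each replicate number. Each line rises from F4/80high to F4/80low, from 70.4 to 133 CPM for S100a8 in replicate 3 for instance, and the points of the subsets overlap for each gene.

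Across the set, the 8 genes with more than 3 counts in every library were each lower in F4/80high in 3 of 3 pairs, as were 15.9% of all 14645 genes tested. None of the 10 had subsets that did not overlap, which 5.2% of all genes had. The median log2 fold change was -1.10 over the 10 members and 0.01 over all genes. With edgeR's quasi-likelihood test and the batch term, where a call needed an adjusted p under 0.05 with a log2 fold change beyond 1 in either direction, 0 members were called and 0% of all genes, while 7 members and 1113 genes had an unadjusted p under 0.05. When the batch was replaced by a block on the replicate number, S100a8, S100a9, Camp, Ngp and Lcn2 were called lower in F4/80high, 5 of 10 against 0.287% of all genes. With DESeq2 and the batch term, Camp, Ngp, Ltf, Lcn2 and Retnlg were called lower, 5 of 10 against 0.676% of all genes. These counts come from the contrast that chose the set and are given for the record.

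Other genes of the neutrophil were taken from lists of granule proteins, stefins and genes of the mature cell, compiled with the results of these data known. Of 36 genes listed, 34 were tested, and 25 of these were lower in F4/80high in all 3 pairs and 0 were higher in all 3. Of all 14645 genes tested, 2323 were lower and 2347 higher in all 3 pairs, and these numbers apply to the lists below as well. The median log2 fold change of the 34 genes was -1.28. EdgeR with batch called 0 of them and 0% of all genes, with 13 and 1113 at an unadjusted p under 0.05. With the replicate block 6 were called lower, Mmp8, Mmp9, Cd177, Hp, Slpi and Cxcr2, against 0.287% of all genes. DESeq2 with batch called 5 lower, against 0.676% of all genes.

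Of the 11 other genes of secondary and gelatinase granules, 8 were lower in F4/80high in all pairs. Mmp9, the gelatinase itself, had 164, 93.9 and 31.0 CPM in F4/80high and 568, 272 and 66.3 CPM in F4/80low replicates 1, 2 and 3. Cd177, a surface protein kept in these granules, had 42.5, 21.9 and 24.3 CPM against 156, 53.2 and 70.8 CPM. Mmp25, which encodes a membrane-bound protease, had 33.7, 15.9 and 14.2 CPM against 93.8, 62.6 and 28.9 CPM. Cybb, the oxidase subunit, and Itgam, which encodes CD11b, belong to this list but are used by macrophages too. Their fitted log2 fold changes were -0.39 ± 0.21 and -0.20 ± 0.29.

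Of the 13 genes of the mature neutrophil, 9 were lower in F4/80high in all pairs. Cxcr2, the receptor for neutrophil-attracting chemokines, had 91.4, 29.5 and 9.73 CPM in F4/80high and 258, 68.3 and 34.2 CPM in F4/80low. Padi4, the enzyme that citrullinates histones, had 59.1, 38.2 and 26.6 CPM against 133, 127 and 42.0 CPM. G0s2, an inhibitor of lipolysis, had 299, 120 and 64.1 CPM against 508, 752 and 134 CPM, with F4/80low replicate 2 as its highest library like that of Retnlg. The 5 stefin A genes of granulocytes were all lower in F4/80high in all pairs, at summed levels of 3.89 to 10.7 CPM in F4/80high and 8.21 to 19.2 CPM in F4/80low.

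The other primary granule genes were low as well, although Prtn3 was above Mpo and Elane in every library. Fcnb was above both except in F4/80high replicate 2, where it had 0.369 CPM and Elane 1.01 CPM. The 5 other primary granule genes summed to 1.73 to 5.68 CPM in F4/80high and 3.99 to 14.1 CPM in F4/80low. Prtn3, or proteinase 3, had 2.42, 1.26 and 1.41 CPM in F4/80high and 7.00, 3.17 and 2.85 CPM in F4/80low. Fcnb, which encodes ficolin B, had 2.02, 0.369 and 0.324 CPM against 5.22, 2.90 and 0.913 CPM. Bpi and Ctsg were at or below 0.738 CPM in every library, and both read 0 in replicate 3 of both subsets.

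**Figure D3:**
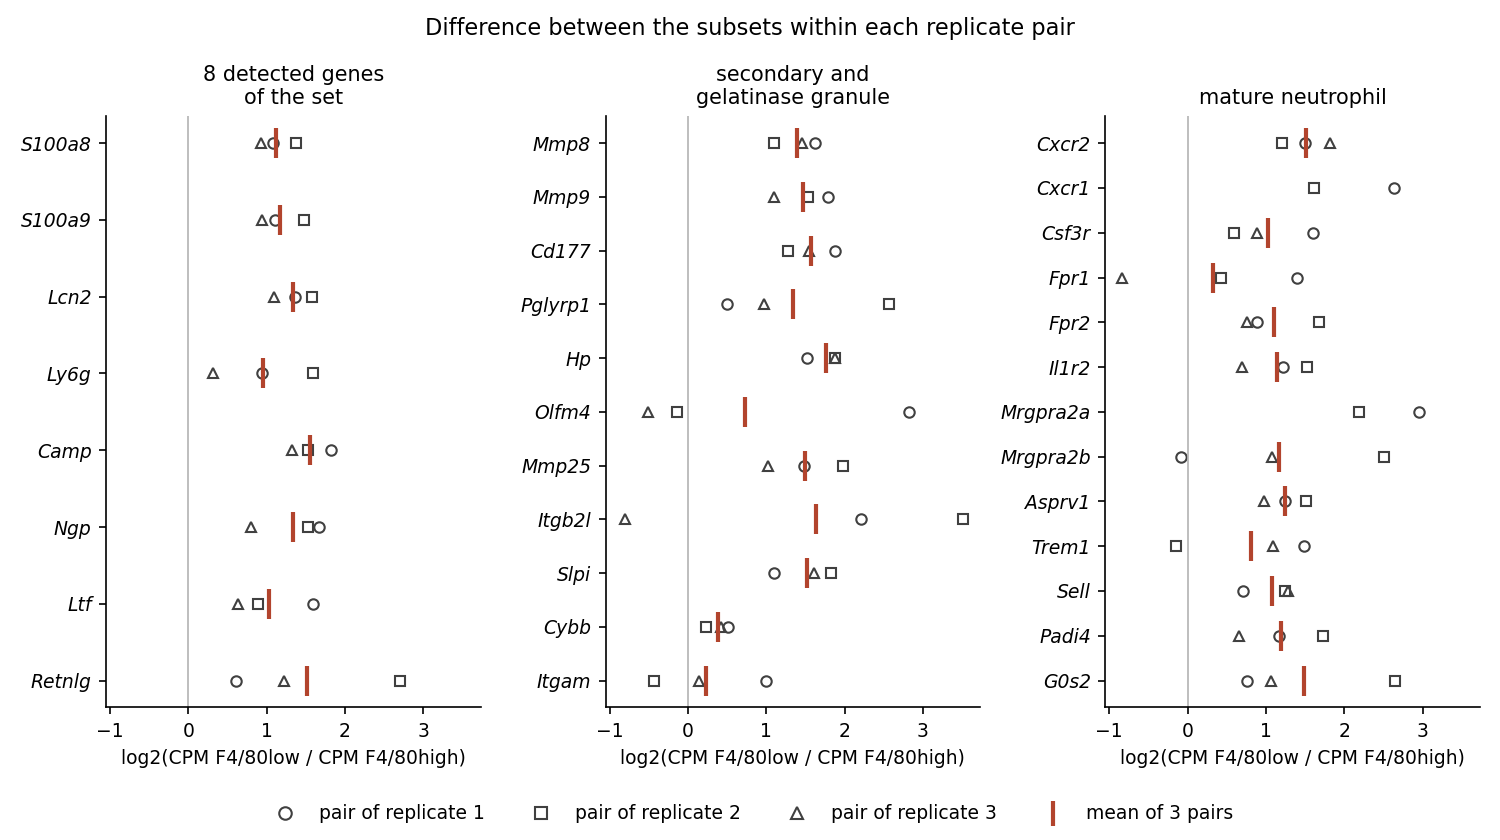
Log2 ratio of CPM in F4/80low over F4/80high within each replicate pair (x axis) for 8 genes of the set, 11 other genes of secondary and gelatinase granules and 13 of the mature neutrophil (rows). Symbols are the pairs of replicates 1, 2 and 3, the red bar is their mean, and a pair with 0 counts in either library is not drawn. All points of the set lie above 0, and Retnlg has the widest spread of the 8.

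Most of the transcription factors of granulocytes were lower in F4/80high. Cebpe, which drives the making of secondary granules, had 16.3, 8.64 and 2.38 CPM in F4/80high and 23.2, 47.1 and 4.68 CPM in F4/80low. Cebpb, which is used by macrophages and in emergency granulopoiesis, had 841, 569 and 427 CPM against 1474, 1133 and 717 CPM. Cebpa, which acts earlier in the lineage, was higher in F4/80high in all pairs, with 48.1, 78.8 and 213 CPM against 29.7, 27.3 and 98.8 CPM. Of the 8 factors, 6 were lower in F4/80high in all pairs and 1 was higher. EdgeR with batch or block called 0, with 3 at an unadjusted p under 0.05 with batch, and DESeq2 with batch called Cebpa higher. Over all 14645 genes the calls in either direction were 0, 76 and 143 in these fits, and 1113 genes had that unadjusted p.

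Receptors of the member proteins were measured as well. Of 9 tested, 1 was lower in F4/80high in all pairs and 3 were higher. EdgeR with batch or block and DESeq2 with batch called 0, with 2 at an unadjusted p under 0.05 in edgeR with batch. Over all genes these fits called 0, 76 and 143, with 1113 at that p. Tlr4, a receptor of S100a8 and S100a9, had 34.3, 77.7 and 34.1 CPM in F4/80high and 68.7, 36.1 and 31.9 CPM in F4/80low, with no shared direction. Slc22a17, a receptor of lipocalin 2, stayed between 0.228 and 2.08 CPM. Of 7 growth factors and chemokines of granulocytes, Cxcl2 and Cxcl3 were lower in F4/80high in all pairs. Cxcl2 had 2828, 2420 and 1288 CPM in F4/80high and 4508, 3739 and 1832 CPM in F4/80low, and Cxcl3 had 94.3, 48.7 and 6.27 CPM against 200 CPM, 160 CPM and 11.5 CPM. DESeq2 with batch called Cxcl3 and edgeR with batch or block called 0 of the 7, beside the numbers over all genes given for the receptors. The growth factor Csf3 was read in replicate 1 alone, with 2.27 and 1.31 CPM.

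A different contrast, that between the experiments, was not used to choose the set. Replicate 3 was compared with replicates 1 and 2 by the batch term of the same edgeR fit, in which the subset was a term. In this fit the subset libraries of an experiment count as separate replicates. Its SEs and p-values therefore do not measure spread between independent experiments. S100a8, S100a9, Camp, Ngp, Ltf, Lcn2 and Elane were called lower in replicate 3, 7 of 10 against 20.2% of all genes called lower. The log2 fold change of replicate 3 over replicates 1 and 2 was -2.11 ± 0.32 (SE, adjusted p = 0.000759) for Ltf, -1.97 ± 0.30 (0.000790) for Camp and -1.77 ± 0.29 (0.00128) for Ngp. It was -1.83 ± 0.49 (0.0148) for S100a8, -1.72 ± 0.53 (0.0267) for S100a9 and -1.60 ± 0.39 (0.00899) for Lcn2. Retnlg and Ly6g, at -0.99 ± 0.40 (0.0743) and -1.71 ± 0.75 (0.0976), did not pass, nor did Mpo. The value of Elane, which had no counts in replicate 3, depends on the prior count and is not given.

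The median of this contrast over all genes was -0.35, and over the members -1.80. The scaling sets this background. In mean log2 CPM, replicate 3 minus replicates 1 and 2 was -1.59 as the median of the 8 detected members and -0.31 over all genes tested with TMM, and -2.74 and -1.27 with library size alone, so the members were below the median of all genes by either scaling. The count of calls fell to 3 without F4/80high replicate 3 and to 2 without F4/80low replicate 3, where a single library stands for batch 2. Batch 2 is a single experiment with 2 libraries, and its 3 abundant features and smaller depth moved with it, and their part in the difference was not tested.

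The 3 replicate numbers were also tested together for any difference. A gene can pass this test through replicate 3 alone. Whether the other replicate numbers differed from each other was not tested. The subset libraries of a replicate number serve as its replicates, so the p-values do not measure spread between independent experiments. In edgeR's F test over the replicate numbers, S100a8 (adjusted p = 0.000214), S100a9 (0.000223), Lcn2 (0.000867), Ltf (0.000939), Ngp (0.00178) and Camp (0.00274) passed, 6 of 10 against 38.5% of all genes. The sum of squares of log2 CPM over the 6 libraries was split into the part between replicate numbers, the part between subsets and the rest. For S100a8 these were 74.3%, 25.0% and 0.678%, and for Camp 58.0%, 41.3% and 0.750%. Over all genes tested the medians of the 3 parts were 74.1%, 6.00% and 11.5%. For Retnlg they were 20.3%, 59.6% and 20.1%, the smallest share between experiments and the largest rest among the 8.

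The genes varied together over the libraries. Among the 8 detected genes there are 28 pairs, and Pearson's r of log2 CPM over the 6 libraries had a median of 0.890 and ran from 0.698 for Ltf and Retnlg to 0.996 for S100a8 and S100a9. These values are a description, since the 6 libraries come from 3 experiments and share scaling, depth and subset. Spearman's rho had a median of 0.886. With the replicate means removed the median r was 0.945, but what remains is then the difference between the subsets, which chose the set. That difference is also part of each r over the 6 libraries, here and in the comparison with all genes below. With both replicate and subset means removed the median r was 0.673, from -0.517 to 0.999. What then remains of each gene is how its 3 pair differences deviate from their mean. A large r of either sign arises easily from so few values. The r over all genes was not taken with these means removed, so nothing is drawn from this median. Over replicates 1 and 2 alone the median r was 0.811. For comparison, the median r of S100a8 was 0.905 with the 7 other members and 0.21 with all genes tested, 2.46% of which reached 0.9.

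**Figure D4:**
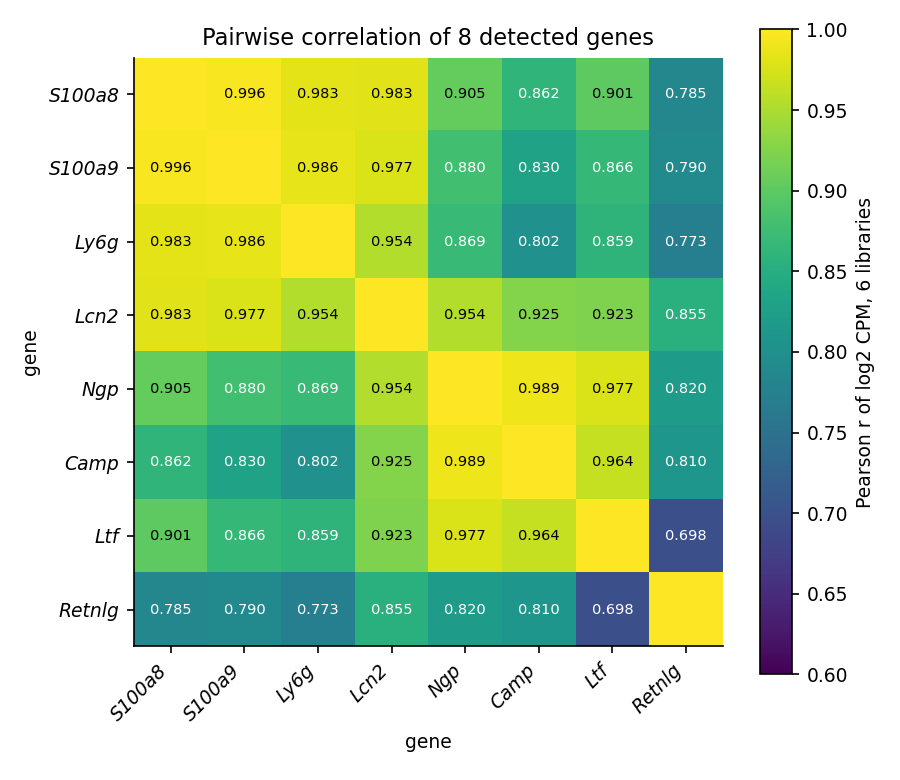
Pearson's r of log2 CPM over 6 libraries for each pair of the 8 detected genes, with genes on both axes and r as colour and number. S100a8, S100a9, Ly6g and Lcn2 have r of at least 0.954 with each other, Camp, Ngp and Ltf of at least 0.964, and Retnlg has r between 0.698 and 0.855 with the others.

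The counts of S100a9 over those of S100a8 stayed nearly constant, with ratios of 1.498, 1.32 and 1.58 for F4/80high replicates 1, 2 and 3 and of 1.52, 1.42 and 1.59 for F4/80low. The highest of these ratios was 1.21-fold the lowest, the smallest such spread of the 28 pairs. Ngp over Camp was 11.8, 9.36 and 13.9 for F4/80high and 10.6, 9.32 and 9.68 for F4/80low, a spread of 1.49-fold. Ltf over Ngp had a spread of 1.59-fold, Lcn2 over S100a8 of 1.57-fold and Ly6g over S100a8 of 1.52-fold. Ltf over Camp had a spread of 1.73-fold and was lower in F4/80low in every pair. A ratio of counts within a library does not depend on scaling or depth, apart from counting error.

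Between these groups the ratios were less constant. Ngp over S100a8 was 0.507, 1.25 and 0.874 for F4/80high and 0.764, 1.399 and 0.803 for F4/80low, so that it was highest in replicate 2 of both subsets. Its spread was 2.76-fold. Retnlg over S100a8 was 1.65, 1.84 and 3.12 for F4/80high and 1.19, 4.62 and 3.83 for F4/80low, a spread of 3.88-fold, and Retnlg over Ltf had the widest spread of all pairs, 5.19-fold. By r, S100a8, S100a9, Ly6g and Lcn2 had at least 0.954 with each other and Camp, Ngp and Ltf at least 0.964, while r between these groups was 0.802 to 0.954, highest for Lcn2 with Ngp. The grouping was made after the values were seen and was not tested.

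**Figure D5:**
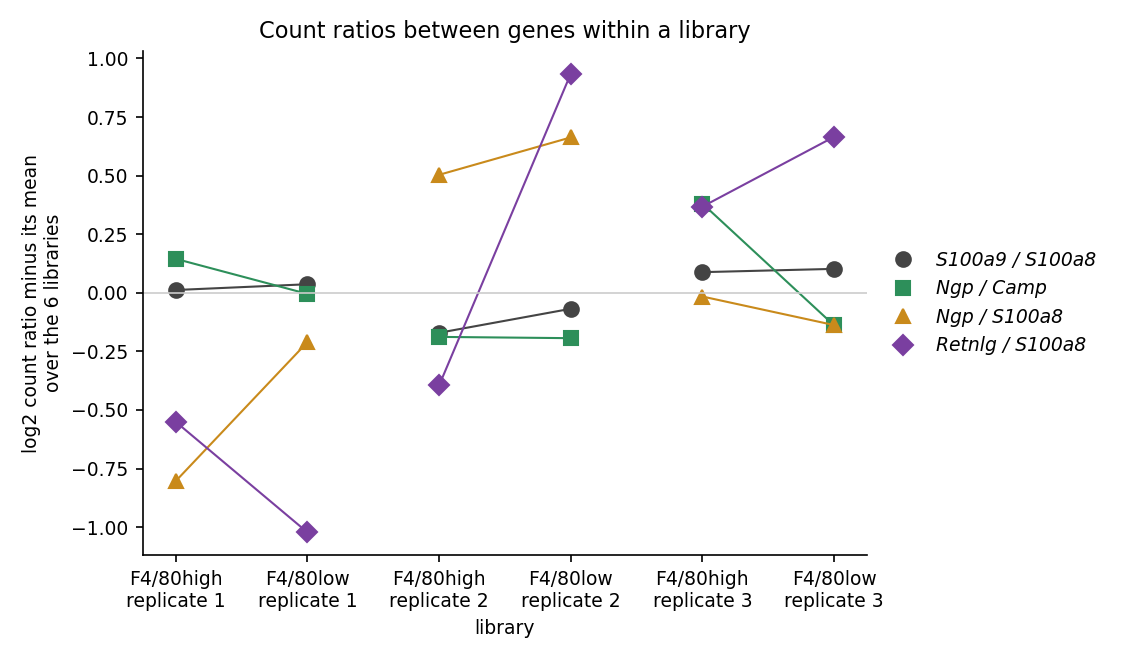
Log2 of the count ratio of 2 genes within a library minus its mean over the 6 libraries (y axis), for the 6 libraries in replicate pairs (x axis). S100a9 over S100a8 stays closest to 0, Ngp over S100a8 is highest in replicate 2, and Retnlg over S100a8 ranges most, from a count ratio of 1.19 to 4.62.

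Genes outside the set were ranked by their r with S100a8 and with Ngp over the 6 libraries, among genes whose mean log2 CPM reached 1. The 10 most like S100a8 were Ulk3, Grina, Ramp3, Wfdc21, Slc9a3r2, Vasp, Plbd1, Cst3, Slpi and Rcsd1, with r from 0.991 to 0.995. Slpi, a protease inhibitor of granulocytes and epithelia, had 101, 28.2 and 12.5 CPM in F4/80high and 217, 101 and 38.3 CPM in F4/80low. The 10 most like Ngp were Vrk1, Add1, Tmem71, Plk3, Gsn, Mettl9, Cd300lf, Cxcl2, Pygl and Mmp9, with r from 0.981 to 0.997. Both lists hold neutrophil genes beside genes that many cells express, such as Vasp, Cst3, Add1 and Gsn. Each list is the top 10 of 10979 genes ranked over only 6 libraries, and a place in it was not tested. Of all genes tested, 2.46% had an r of at least 0.9 with S100a8 and 1.91% with Ngp. The 10 most like Retnlg, which were looked at after its pattern was seen, include Siglecg, Cd24a and Rgs18, with r from 0.968 to 0.981.

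Markers of other cells in the gate moved with the subsets too, and their part in the values of the set was not tested. Lower in F4/80high in all 3 pairs were 15.9% of all genes and 7 of 9 eosinophil markers. Their summed level was 94.3 to 187 CPM in F4/80high and 271 to 622 CPM in F4/80low, and it came mainly from Ccr3, Siglecf and Prg2. The granule gene Prg2 had 31.0, 14.1 and 8.11 CPM in F4/80high and 73.0, 121 and 21.1 CPM in F4/80low replicates 1, 2 and 3, while Epx, the eosinophil peroxidase, was at 1.46 CPM or less in every library. The receptor gene Ccr3 had 75.4, 37.1 and 79.7 CPM in F4/80high and 140 CPM, 275 CPM and 179 CPM in F4/80low. The highest eosinophil sum was in F4/80low replicate 2, which was also the highest library of Retnlg. The mean profile of a list was taken after each gene's log2 CPM was centred and scaled. Low genes such as Epx therefore weigh as much as Ccr3. The profile of the eosinophil list had an r of 0.917 with Retnlg and of 0.579 to 0.829 with the other 7 genes over the 6 libraries. That of the mature neutrophil list had an r of 0.807 with Retnlg and of 0.825 to 0.989 with the others. Camp had nearly the same r with both profiles, 0.829 and 0.825. The profile of the other secondary and gelatinase granule genes had an r of 0.834 with Retnlg and of 0.845 to 0.958 with the others.

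Of 9 monocyte markers, 5 were lower in F4/80high in all pairs and 0 were higher in all pairs. Over all 14645 genes tested, 2323 were lower and 2347 higher in all pairs. Chil3, a chitinase-like protein of monocytes and of immature neutrophils, had 489, 222 and 163 CPM in F4/80high and 1454 CPM, 867 CPM and 666 CPM in F4/80low. The summed monocyte level was 2298 to 4371 CPM in F4/80high and 2905 to 8385 CPM in F4/80low. It was highest in replicate 3, where the sum of the members was lowest. Ly6c2, Ccr2, Plac8, Vcan and Ms4a4c were highest in replicate 3 of both subsets. Chil3 and F13a1 were lowest there, F13a1 at 164 and 155 CPM. Of 10 macrophage markers, 8 were higher in F4/80high in all pairs and 0 were lower in all, at sums of 6969 to 22769 CPM in F4/80high and 2117 to 11007 CPM in F4/80low. The macrophage sums were lowest in replicate 3 of both subsets, as those of the members were. So were sums of T and NK cell markers, at 304 and 149 CPM, and of B and plasma cell markers, at 54.1 and 38.7 CPM. Sums of myeloid progenitor, fibroblast, endothelial and melanoma cell markers were highest in replicate 3 of both subsets, as for monocytes. Single markers did not all follow these sums. Mrc1 was highest in F4/80high replicate 3, at 1313 CPM, and Mertk and Fcgr1 were highest in F4/80low replicate 3. In replicate 3, Kit gave 91.3 of the 168 CPM of the progenitor sum in F4/80high and 384 of the 576 CPM in F4/80low. C1qa, a chain of complement C1q made by macrophages, had 971, 2467 and 543 CPM in F4/80high and 199, 976 and 83.2 CPM in F4/80low. Mast cell and basophil markers summed to 5.89 to 97.5 CPM in F4/80high and 20.5 to 114 CPM in F4/80low, with Mcpt8 at 0.577 CPM or less, and their mean profile had an r of 0.576 to 0.932 with the 8 genes. Of 8 dendritic cell markers 5 were lower in F4/80high in all pairs, at sums of 75.9 to 316 CPM against 142 to 518 CPM, with an r of 0.522 to 0.871. Markers of T and NK cells were lower in F4/80low replicates 1 and 3 and higher in F4/80low replicate 2, as medians of -1.55, -1.17 and 0.73 in log2 of F4/80low over F4/80high. Keratinocyte markers, counted because S100a8 and S100a9 are also made by inflamed skin, summed to at most 2.93 CPM in any library.

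The promoters of the 10 genes were searched for 3 motifs on windows of 300 bases. The C/EBP motif TTNNGNAA was found on either strand in 7 of 10 members, S100a8, S100a9, Ngp, Ltf, Lcn2, Retnlg and Ly6g, and in 40.7% of 32851 RefSeq promoters. The PU.1 motif AGGAAGT was found in 4 members, S100a8, Mpo, Elane and Ly6g, and in 9.35% of all promoters. The TATA box TATAAA was found on the strand of the gene in 3 members, S100a8, S100a9 and Ly6g, and in 8.32% of all promoters. In S100a8 it begins 30 bases before the RefSeq start, and in S100a9 at the start itself. In Ly6g it begins at positions -99 and -167 from its 2 RefSeq starts. A match of letters is not a bound site, and a window without a match says nothing of the factor.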

How the data were processed

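RNA was measured by poly-A RNA-seq in 6 libraries, 3 of F4/80high and 3 of F4/80low TAMs. The authors deposited raw read counts per gene for each library, with gene length and biotype and no normalization. The aligner, the counting rule and the use of strand are not given in the sources used here. No library was a copy of another. The genes were matched by name, and their positions and biotypes were taken from GENCODE M21 by gene ID, in which 99.4% of IDs were found.

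The 14645 protein-coding genes with at least 10 summed counts were fitted in R 4.3.3 with edgeR 4.0.16 (quasi-likelihood, TMM) with terms for batch and subset, and a call needed a p adjusted by Benjamini-Hochberg under 0.05 with a log2 fold change beyond 1 in either direction. Log2 CPM used a prior count of 2. Alternatives were DESeq2 1.42.0, other scalings and filters, and left-out libraries. The fits were tested on simulated data. The named genes are all members, up to 3 genes a list and direction by smallest p, and the 10 genes of highest r with S100a8 and with Ngp. Others were named after their values were seen. Members and lists were chosen with earlier results of these data known. Total counts of 16045281 to 43604373 set the precision, and limits from counts cover counting error only. P-values measure the spread between these libraries.

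Libraries of the same replicate number were taken as pairs. The study states 3 independent experiments, and that each number is 1 of them is inferred here. Over 10072 genes, the 2 libraries of numbers 1, 2 and 3 had correlated deviations from their subset means (r of 0.745, 0.729 and 0.907), with r of 0.242 within batch 1 alone.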

Additional observations from a re-analysis of the deposited data

How the results depend on the processing

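The log2 fold change of each of the 10 members kept its sign under all 17 alternatives, from -1.68 to -1.48 for Camp and from -1.51 to -0.38 for Ly6g. That of Mpo, which has 0 counts in 3 libraries, ran from -7.52 without F4/80high replicate 1 to -0.026 without F4/80high replicate 2. The number called between the subsets, 0 with edgeR and batch, was 5 with DESeq2 and batch, 5 with the replicate block, whether or not a fold was required, and 7 with DESeq2 and the replicate block. Over all 14645 genes these numbers were 0, 143, 76 and 341. Under the other alternatives 0 members were called, also without any 1 library, without replicate 3 of both subsets, and without it with the replicate block, an alternative that was added after the data were seen like the block without a fold. Of all genes, 57 were called without F4/80high replicate 1 and 22 with the replicate block without replicate 3 of both subsets. Among the other neutrophil genes, beside the same numbers over all genes, the number was 5 with DESeq2 and batch, 6 with the replicate block, 6 with the replicate block and no fold, 15 with DESeq2 and the replicate block, and 1 with the replicate block without replicate 3 of both subsets. In the blocked edgeR fit Ltf and Retnlg had adjusted p of 0.115 and 0.133. The number called lower in replicate 3 ran from 2 to 10 with 1 library left out, and was 9 with library size alone. The number that differed among the replicate numbers ran from 5 to 8 with 1 library left out, and was 9 with library size alone. The median r of the pairs ran from 0.832 to 0.953 with 1 library left out. The mean share of counts taken by the members was 0.121% in F4/80high and 0.299% in F4/80low. With 1 library left out this mean ran from 0.0628% to 0.167% in F4/80high and from 0.214% to 0.419% in F4/80low.

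Depth limits Mpo, Elane and Ly6g, which have 0 to 13 counts in replicate 3. With 3 libraries a subset, a library that stands apart was not looked for within a group.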
